A study of Mus musculus with 2 samples.

Results

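The transcription factor NRF2, encoded by Nfe2l2, was examined with its regulators Keap1 and Bach1 and with 7 of its classical NADPH and redox targets, Nqo1, Srxn1, Osgin1, G6pdx, Pgd, Me1 and Txn1. These 10 genes were taken by symbol from a list that was chosen with earlier results of these data known. All 10 were found among the 21878 genes of the deposited tables. RNA came from cells described as primary chondrocytes of C57BL/6 mice, cultured with 10% FBS and treated with lentivirus. In the shGpx4 group the virus carried a hairpin that knocks down Gpx4, the glutathione peroxidase that reduces lipid hydroperoxides, and in the shNC group it carried a control hairpin. Each group is 1 library, and the labels do not say how many animals or cultures were pooled into it, so no difference could be tested against replicate spread.

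NRF2 binds antioxidant response elements together with small MAF proteins and turns on genes of detoxification, thiol reduction and NADPH supply. KEAP1, an adaptor of the CUL3 ubiquitin ligase, marks NRF2 for degradation until its cysteines are modified by electrophiles or oxidants, and BACH1 is a heme-sensing repressor that occupies the same elements. NRF2 activity is set largely at the level of protein, which these RNA libraries do not measure. In chondrocytes the pathway is known for its part in the response to oxidative stress.

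Levels are given in FPKM, reads scaled by gene length and library total, so that they can be set side by side between genes. The log2 ratio of a gene is log2 of its FPKM + 1 in shGpx4 divided by its FPKM + 1 in shNC. Each interval is an exact Clopper-Pearson 95% interval of the FPKM ratio itself, in log2, worked out from the smallest whole reads that give the deposited values. It covers counting error only, and reads of an amplified library are not independent molecules. The true reads may be a multiple of the smallest ones, and the interval is then wider than their counting error. The library totals were 21313211 reads for shGpx4 and 19729142 reads for shNC, and the 10997 genes with a mean of at least 1 FPKM are called measured. Gpx4 was at 96.2 FPKM in shGpx4 and 161 FPKM in shNC, which leaves 59.9%. Of 16 chondrocyte markers, 6 were under 0.1 FPKM in both libraries, among them Acan, Matn1 and Col9a1. The 16 summed to 2025 FPKM in shGpx4 and 2016 FPKM in shNC, of which Comp made 1421 FPKM in shGpx4 and 1666 FPKM in shNC. The 9 measured ones had 5 intervals above 0 and 4 below 0, or 55.6% and 44.4%. Over all measured genes the shares were 18.1% and 27.3%. Col2a1 stood far apart, at 58.4 FPKM in shGpx4 and 8.96 FPKM in shNC (2.58), and Lect1 (1.12) and Prg4 (0.58) were higher in shGpx4 too, while Comp (-0.23) and Sox9 (-0.25) were lower. Endothelial markers were near 0, with all 5 under 0.1 FPKM in both libraries. Of 10 macrophage and leukocyte markers, 5 including Ptprc were under 0.1 FPKM in both. The 10 summed to 23.2 FPKM in shGpx4 and 21.5 FPKM in shNC, but Lyz2 was at 1.86 FPKM in shGpx4 and 7.67 FPKM in shNC, and Cd14 at 17.1 FPKM in shGpx4 and 9.19 FPKM in shNC. The 10 fibroblast markers summed to 9070 FPKM in shGpx4 and 7100 FPKM in shNC. Without Dcn (0.84) they summed to 4029 FPKM in shGpx4 and 4292 FPKM in shNC, with Postn at -1.53. All 10 were measured, with 7 intervals above 0 and 3 below 0. Those are 70% and 30%, against 18.1% and 27.3% of all measured genes. The 6 osteoblast markers summed to 9.61 FPKM in shGpx4 and 19.7 FPKM in shNC. The part of cell makeup in the values below was not tested, and in bulk RNA fewer cells of a type and less RNA per cell cannot be told apart.

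The promoters show which members carry the sequence NRF2 is known to bind close to the start of transcription. In the RefSeq windows of GRCm38.p6, from 250 bases before the annotated start to 50 bases after it, all 10 members were matched, with 12 windows between them. The antioxidant response element core TGACNNNGC was searched on both strands. It was present in 4071 of 32851 windows, or 12.4%, and in 5 of the 12 member windows, which belong to Nfe2l2, Srxn1, Pgd, Me1 and G6pdx. The related AP-1 motif TGANTCA, a palindrome that small MAF and CNC proteins such as BACH1 can also bind within a longer element, was in 7.81% of all windows and in 3 of the 12 member windows, those of Srxn1, Osgin1 and Me1. Promoter stretches of 5 members are shown because they hold these letters, in capitals, within or next to the promoter. They run 5′ to 3′ on the strand of the gene.
Nfe2l2: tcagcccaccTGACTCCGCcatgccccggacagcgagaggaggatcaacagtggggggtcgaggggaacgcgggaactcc
G6pdx: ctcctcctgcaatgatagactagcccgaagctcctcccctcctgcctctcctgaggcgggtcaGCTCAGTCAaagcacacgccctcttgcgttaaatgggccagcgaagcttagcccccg
Me1: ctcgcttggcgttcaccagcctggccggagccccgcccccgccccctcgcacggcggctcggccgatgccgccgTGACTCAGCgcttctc
Srxn1: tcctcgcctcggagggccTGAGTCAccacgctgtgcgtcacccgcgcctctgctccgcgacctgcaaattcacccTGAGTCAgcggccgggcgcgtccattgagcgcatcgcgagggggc
Osgin1: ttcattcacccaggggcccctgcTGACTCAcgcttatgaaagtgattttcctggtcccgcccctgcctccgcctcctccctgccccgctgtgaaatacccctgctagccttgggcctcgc

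The Nfe2l2 stretch is chr2:75704834-75704913 on the minus strand and holds the core from position -240 to -232 relative to its own start, so the gene for NRF2 carries these letters itself. In G6pdx (chrX:74428881-74429000, minus strand) the core lies on the opposite strand from -57 to -49. In Me1 (chr9:86695905-86695994, minus strand) the core begins at -6 and overlaps the AP-1 motif at the start of transcription itself. In Srxn1 (chr2:152105404-152105523, plus strand) the AP-1 motif occurs at -102 and again at -45, and a core match on the opposite strand lies just downstream of the start, at 29. In Osgin1 (chr8:119437027-119437146, plus strand) the AP-1 motif lies at -97 of an annotated start inside the gene, whose span begins upstream at 119425882. The Pgd match begins at position 4, just past the downstream of its annotated starts. Neither motif was found in the windows of Keap1, Bach1, Nqo1 and Txn1, which says only that these letters are not in those windows of 300 bases.

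**Figure D1:**
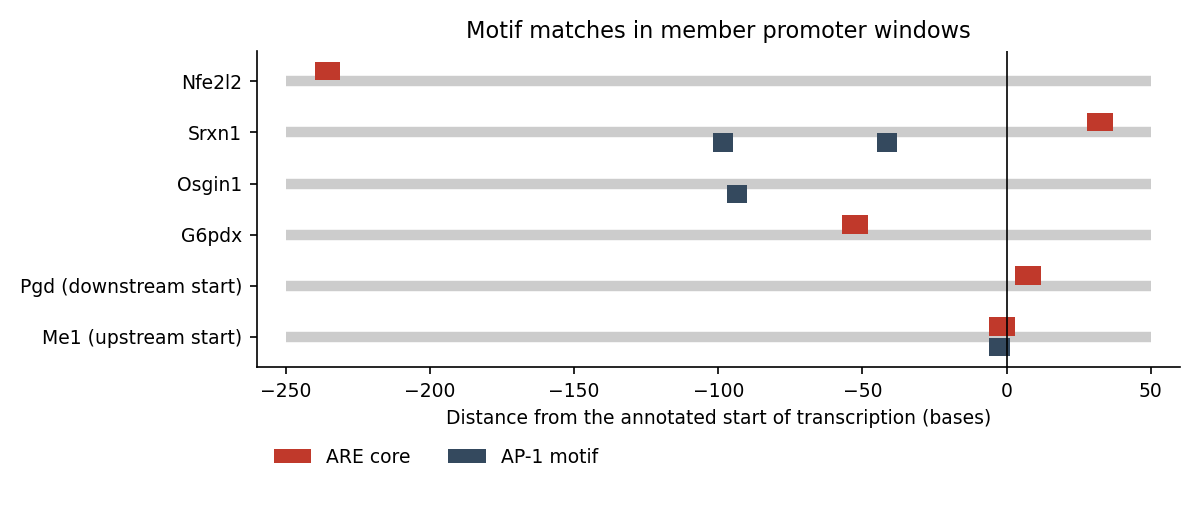
Position of the antioxidant response element core (red, above each bar) and of the AP-1 motif (dark, below) in the promoter windows of the 6 members with a match, in bases from the annotated start of transcription. The Me1 matches lie on the start itself, and the Nfe2l2 match begins at -240. The Osgin1 start lies inside the span of the gene.

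None of the 10 genes differed by 1.5-fold or more between the libraries, in either direction. Among all measured genes 2.99% were at least 1.5-fold higher in shGpx4 and 1.96% at least 1.5-fold lower, so a count of 0 among 10 is near the background. The members' differences were small but mostly upward: 7 had a counting interval above 0, 1 had an interval below 0 and 2 had intervals that held 0. Over all measured genes 18.1% had an interval above 0 and 27.3% below 0, and among the 8007 genes with a mean of at least 5 FPKM, where all members lie, the shares were 18.8% and 29.7%. The median log2 ratio of the members was 0.18, beside -0.04 for all measured genes. Members share a pathway and the same 2 libraries, so they are not independent observations.

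**Figure D2:**
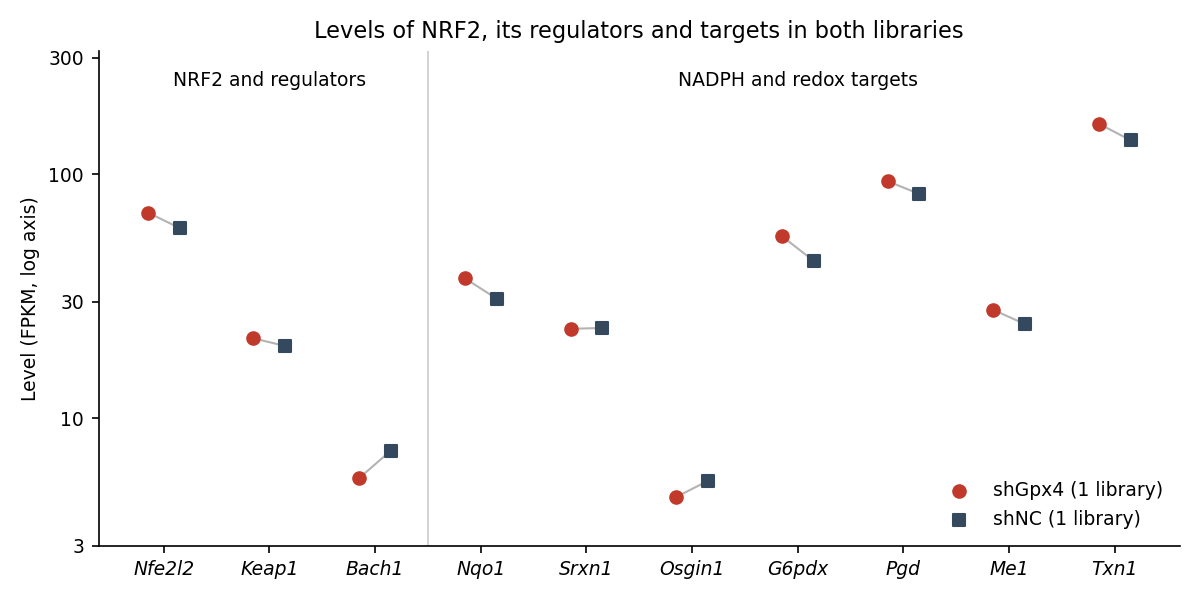
Level of each member in FPKM on a log axis in the shGpx4 library (red circles, left of each pair) and the shNC library (dark squares, right), 1 library each, joined by a grey line. Txn1 is the highest member and Osgin1 the lowest in both libraries, and the lines of Bach1 and Osgin1 slope the other way from most.

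The order of the 10 levels was the same in both libraries, namely Txn1, Pgd, Nfe2l2, G6pdx, Nqo1, Me1, Srxn1, Keap1, Bach1 and Osgin1 from high to low. The closest neighbours by ratio of levels were Srxn1 and Keap1 in shGpx4, at 23.2 and 21.2 FPKM, and Me1 and Srxn1 in shNC, at 24.3 and 23.4 FPKM. With 1 library per group there is no replicate spread against which any pair of neighbours could be told apart. The order spanned from 161 FPKM for Txn1 to 4.75 FPKM for Osgin1 in shGpx4, and from 137 FPKM to 5.53 FPKM for the same genes in shNC.

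Nfe2l2 was modestly higher in the knockdown library. It had 69.5 FPKM in shGpx4 and 60.1 FPKM in shNC, a log2 ratio of 0.21 with an interval of 0.14 to 0.28. At least 3700 reads in shGpx4 and 2962 reads in shNC stand behind these levels. Of the measured genes, 1271 had a higher ratio, so a difference of this size was common in this pair of libraries. RefSeq places Nfe2l2 on chromosome 2 of GRCm38.p6, from 75675513 to 75704663.

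Keap1, which encodes the KEAP1 adaptor, was only slightly higher in shGpx4. It had 21.2 FPKM in shGpx4 and 19.7 FPKM in shNC, with a log2 ratio of 0.10 and an interval of 0.02 to 0.19 that only just stayed above 0. The level of Nfe2l2 was 3.28 times that of Keap1 in shGpx4 and 3.05 times in shNC, so the transcript balance of factor and adaptor was nearly alike. Keap1 lies on chromosome 9 from 21229730 to 21239332.

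Bach1, the gene of the repressor, was the lowest member by ratio and the only one whose interval lay below 0. It had 5.67 FPKM in shGpx4 and 7.36 FPKM in shNC, a log2 ratio of -0.32 with an interval of -0.51 to -0.24, from at least 803 reads in shGpx4 and 964 reads in shNC. Of all measured genes 8.57% had a lower ratio. The level of Nfe2l2 was 12.3 times that of Bach1 in shGpx4 and 8.17 times in shNC, so the transcript balance of activator and repressor differed more than that of factor and adaptor. Bach1 lies on chromosome 16 from 87698954 to 87733346.

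The 3 NADPH-making enzymes among the members all had intervals above 0. G6pdx encodes the X-linked glucose-6-phosphate dehydrogenase that opens the oxidative pentose phosphate pathway and makes its first NADPH. It was at 55.7 FPKM in shGpx4 and 44.1 FPKM in shNC, the highest ratio of the 10 at 0.33 with an interval of 0.26 to 0.41. A higher ratio than that of G6pdx was found for 744 measured genes. G6pdx, on chromosome X from 74409483 to 74428880, lies wholly within the span of Ikbkg on the opposite strand. Ikbkg itself had 12.5 FPKM in shGpx4 and 13.7 FPKM in shNC, so the overlapping gene went the other way (-0.12), but whether reads were assigned by strand is not given in the sources used here.

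Pgd encodes 6-phosphogluconate dehydrogenase, which makes the other NADPH of that pathway. It was the second most abundant member, at 93.5 FPKM in shGpx4 and 82.9 FPKM in shNC, with a log2 ratio of 0.17 and an interval of 0.11 to 0.24. Its level was 1.68 times that of G6pdx in shGpx4 and 1.88 times in shNC. Me1 encodes cytosolic malic enzyme, which makes NADPH while converting malate to pyruvate. It was at 27.8 FPKM in shGpx4 and 24.3 FPKM in shNC, with a log2 ratio of 0.19 and an interval of 0.04 to 0.36. Summed over the 3 NADPH enzymes the level was 177 FPKM in shGpx4 and 151 FPKM in shNC, or 17.0% higher in shGpx4. Pgd lies on chromosome 4 from 149149991 to 149166705, and Me1 on chromosome 9 from 86581363 to 86695914, where its end overlaps the lncRNA A330041J22Rik by 473 bases.

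Of the redox enzymes proper, Nqo1 and Txn1 were higher in shGpx4, and Srxn1 differed by less than its counting error. Nqo1, the NAD(P)H quinone reductase widely used as a readout of NRF2, had 37.4 FPKM in shGpx4 and 30.9 FPKM in shNC. Its log2 ratio was 0.27 with an interval of 0.15 to 0.40, next after G6pdx among the members. Nqo1 lies on chromosome 8 from 107388225 to 107403205. Txn1, which encodes cytosolic thioredoxin, was the most abundant member at 161 FPKM in shGpx4 and 137 FPKM in shNC. Its log2 ratio was 0.22 with an interval of 0.15 to 0.30, and it lies on chromosome 4 from 57943373 to 57956411.

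Srxn1 encodes sulfiredoxin, which repairs hyperoxidised peroxiredoxins and uses thioredoxin as an electron donor. It had 23.2 FPKM in shGpx4 and 23.4 FPKM in shNC, with an interval of -0.12 to 0.10 that held 0. The sign of its log2 ratio depended on the scaling, at -0.01 as deposited and 0.03 after centring on the median of all measured genes. The upper bound of that interval was 1.07-fold. The level of Txn1 was 6.93 times that of Srxn1 in shGpx4 and 5.88 times in shNC. Srxn1 lies on chromosome 2 from 152105524 to 152111376, on the same chromosome as Nfe2l2.

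Osgin1, which encodes an oxidative stress-induced growth inhibitor, was the least abundant member and had the fewest recovered reads. It had 4.75 FPKM in shGpx4 and 5.53 FPKM in shNC, from at least 116 reads in shGpx4 and 125 reads in shNC. Its log2 ratio of -0.18 had an interval of -0.60 to 0.16 that held 0, worked out from these smallest reads. The gene lies on chromosome 8 from 119425882 to 119446257 and overlaps the lncRNA Gm32006 by 3681 bases.

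**Figure D3:**
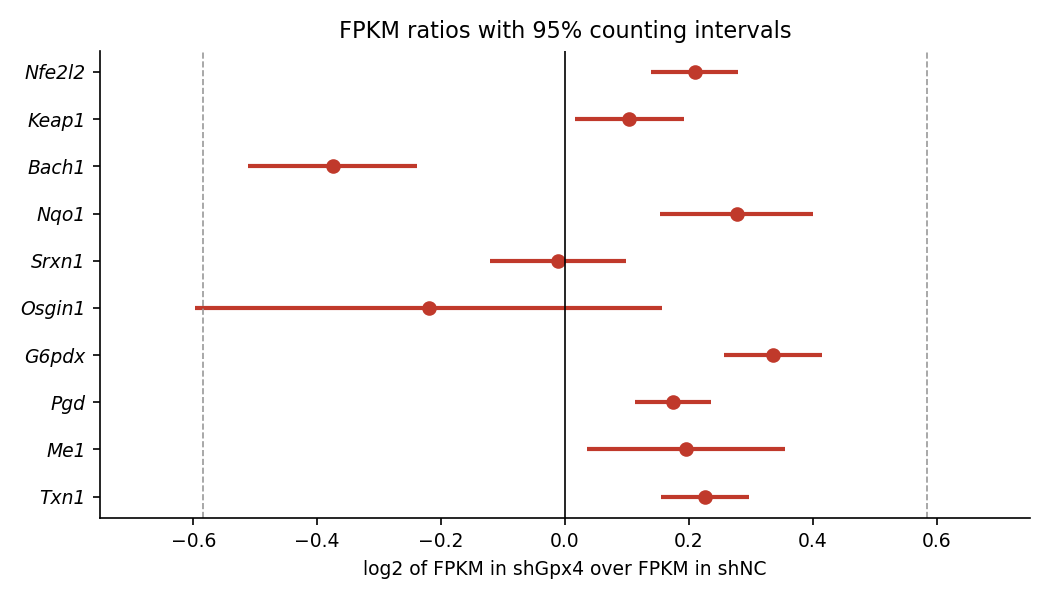
FPKM ratio of each member, shGpx4 over shNC, on a log2 axis (points) with its exact 95% counting interval (bars), and dashed lines at 1.5-fold. The intervals of 7 members lie above 0, that of Bach1 below 0, and those of Srxn1 and Osgin1 hold 0.

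By a smaller size rule, a ratio at least 25% above 1 or its inverse, G6pdx was higher and Bach1 was lower, against 6.97% of measured genes higher and 8.7% lower. Bach1 passed only just, at -0.32, and lay at -0.29 after centring on the median, short of that rule. With a pseudocount of 0.1 in place of 1 and no centring it lay at -0.37. Its place under the rule thus depends on these settings. The 7 targets together summed to 403 FPKM in shGpx4 and 349 FPKM in shNC.

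The 3 protein-coding genes whose levels were nearest to those of Nfe2l2 in both libraries were Ilk, Lrp10 and Ehd2. Nearness was the sum, over the 2 libraries, of the absolute difference in log2 of (FPKM + 1), and it was 0.039, 0.046 and 0.059 for these genes in that order. Ilk had 69.2 FPKM in shGpx4 and 61.5 FPKM in shNC.

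Paralogues of the members were split. Of 11 paralogues 6 were measured, with 2 intervals above 0, 2 below 0 and a median log2 ratio of 0.04. Those intervals are 33.3% each way, against 18.1% above 0 and 27.3% below 0 over all measured genes. H6pd, the hexose-6-phosphate dehydrogenase of the endoplasmic reticulum, had 70.0 FPKM in shGpx4 and 57.2 FPKM in shNC (0.29), a direction shared with G6pdx. Me2, the mitochondrial NAD-dependent malic enzyme, had 4.88 FPKM in shGpx4 and 4.20 FPKM in shNC (0.18). Osgin2 was further from level than any member, at 5.17 FPKM in shGpx4 and 9.39 FPKM in shNC (-0.75, interval -1.04 to -0.68). Txn2, the mitochondrial thioredoxin, had 51.4 FPKM in shGpx4 and 57.8 FPKM in shNC (-0.17, interval -0.32 to -0.02), opposite in sign to Txn1. The remaining measured relatives, Nfe2l1 (0.02) and Nqo2 (0.06), had intervals that held 0, and Nfe2l3 and G6pd2 were listed at 0 in both libraries.

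Genes that degrade or partner NRF2 had a median near 0. Of 23 entries 22 were measured, with a median log2 ratio of -0.01. Most intervals, 14, held 0, while 3 lay above 0 and 5 below 0. The shares above and below 0 were 13.6% and 22.7%, against 18.1% and 27.3% of all measured genes. Against 2.99% and 1.96% of all measured genes, 1 was at least 1.5-fold higher and none was at least 1.5-fold lower. The exception was Maff, a small MAF partner that binds DNA beside NRF2 or BACH1, at 8.71 FPKM in shGpx4 and 4.90 FPKM in shNC (0.72, interval 0.61 to 1.05). Sqstm1, whose product p62 captures KEAP1 and is itself an NRF2 target, was at 293 FPKM in shGpx4 and 344 FPKM in shNC (-0.23, interval -0.27 to -0.20). Rbx1, the RING subunit of the CUL3 ligase, was at 31.3 FPKM in shGpx4 and 37.2 FPKM in shNC (-0.24, interval -0.37 to -0.13). Park7, which encodes the redox-sensitive protein DJ-1, was at 110 FPKM in shGpx4 and 132 FPKM in shNC (-0.26, interval -0.35 to -0.18).

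NRF2 targets outside the 10 members did not share their upward lean. Of 36 entries 35 were matched and 32 were measured, with 16 log2 ratios above 0 and 16 below 0, a median of 0.00, 7 intervals above 0 and 12 below 0. Those intervals are 21.9% and 37.5% of the measured entries, against 18.1% and 27.3% of all measured genes. By the 1.5-fold rule 1 was higher and 3 were lower, against 2.99% and 1.96% of all measured genes. The largest differences were those of the retinal dehydrogenase gene Aldh1a1, at 21.3 FPKM in shGpx4 and 38.9 FPKM in shNC (-0.84), the prostaglandin reductase gene Ptgr1 (0.66, interval -0.12 to 1.62), the ferritin light chain gene Ftl1 (-0.60) and the glutathione transferase gene Gsta4 (-0.59). The Ptgr1 interval comes from only 34 reads in shGpx4 and 19 reads in shNC, the smallest that fit, so it may be too wide. Gclc and Gclm, the subunits of glutamate-cysteine ligase, had ratios of 0.01 and 0.13 with intervals that held 0. Hmox1, which encodes heme oxygenase 1, had a ratio of -0.11. Txnrd1, the reductase that recharges the Txn1 product with NADPH, was at 27.6 FPKM in shGpx4 and 21.7 FPKM in shNC (0.33, interval 0.26 to 0.44), close to G6pdx in ratio. Slc7a11, the cystine transporter gene, was under the level filter at 0.466 FPKM in shGpx4 and 0.238 FPKM in shNC, with an interval of 0.44 to 1.51.

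**Figure D4:**
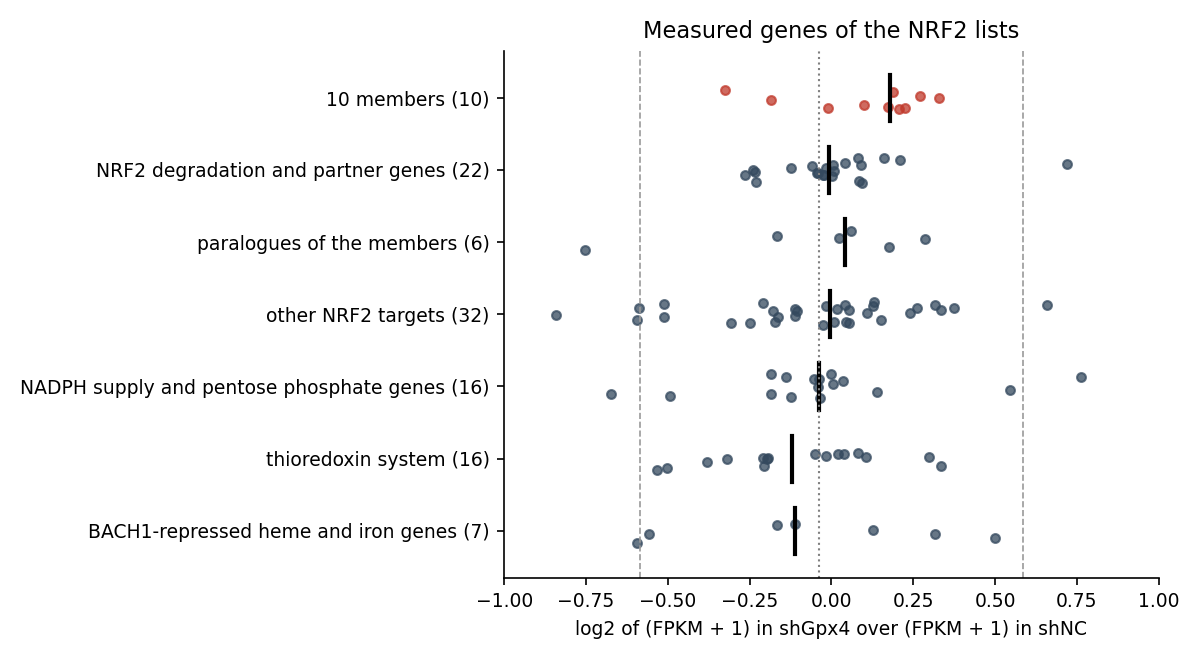
The log2 ratio, with 1 added to each FPKM, of shGpx4 over shNC for each measured gene (points) of the 10 members and of 6 related lists, with black bars at the list medians, a dotted line at the median of all measured genes and dashed lines at 1.5-fold. The members' median is 0.18, while the other lists have medians between -0.12 and 0.04.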

How the data were processed

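The authors deposited 1 table of FPKM values per library, read as FPKM from the values and from Cufflinks in the submitters' processing notes. Trimmomatic, HISAT2, Cufflinks and GRCm38 are named there, per the submitters' processing notes. Versions, settings and any use of strand were not given in the sources used here, so overlapping genes may share reads.

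Library totals were found as the common divisor of the inverse FPKM values, and with them each value came out at a whole number of reads for a whole gene length, to within 6.4e-10 reads. The reads used are the smallest that fit both libraries and sum to 90.0% of the total in shGpx4 and 89.9% in shNC. Ratios used a pseudocount of 1 without rescaling. With 1 library per group there was no test. Members and gene lists were chosen with earlier results of these data known. The genes named are the 10 members, Gpx4, Hmox1, Gclc, Gclm, Slc7a11, Txnrd1, markers, the 3 genes nearest to Nfe2l2 and up to 4 measured genes with the largest absolute ratio in each list. Nfe2l1, Nqo2, Nfe2l3, G6pd2, the genes overlapping members, Taldo1, Tkt and Prdx1 were named after their values were seen. Of 112 entries in the 6 related lists 111 matched, and Trim16l is not analysed here. Functions were tested on simulated data. Python 3.11.15, numpy 2.4.6, pandas 2.3.3, scipy 1.17.1 and matplotlib 3.10.9 were used.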

Additional observations from a re-analysis of the deposited data

How the results depend on the processing

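Of 92 alternative values for 14 results, 90 stayed within counting error or, for counts, at the same count. The alternatives were a pseudocount of 0.1, centring, rescaling by the 75th percentile, by a trimmed mean of log ratios or to a common sum, a mean of at least 5 FPKM, no filter and a size rule of 25% in place of 1.5-fold, together with recovered reads with 0.5 reads added, chosen after seeing the data. The other 2 values came from the 25% rule, by construction a wider one, under which 1 member was higher and 1 lower in place of 0 and 0. The members' median ranged from 0.18 to 0.23, and the ratio of Gpx4 from -0.74 to -0.69. The ratio of Srxn1 took the other sign under 3 rescalings, ranging from -0.01 to 0.03, and that of no other member did. Rescaling moved all genes by at most 0.05 in size (-0.05 for the 75th percentile). With member ratios from -0.32 to 0.33, shifts of that size could not change the 1.5-fold counts. The intervals of the members and of Gpx4 all reach further than that to either side of the ratio. The narrowest is that of Pgd, from 0.11 to 0.24. Rescaling and centring could therefore not take any of these ratios past its counting error, and staying within it was fixed in advance for those settings. All 10 members have a mean of at least 5 FPKM, so the filter settings could not change any member result either. No paired analysis was possible because each group has 1 library. Osgin1 has the widest interval of the members, from the smallest reads that fit, and nothing here measures the spread between cultures.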

Other observations

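Other genes of NADPH supply and of the pentose phosphate pathway mostly had intervals that held 0. Of 16 such genes, all measured, 11 had intervals that held 0, 3 lay above 0 and 2 below 0, with a median log2 ratio of -0.04. The shares above and below 0 were 18.8% and 12.5%, against 18.1% and 27.3% of all measured genes. By the 1.5-fold rule 1 was higher and 1 lower, against 2.99% and 1.96% of all measured genes. Aldh1l1 (5.41 FPKM in shGpx4 and 2.78 FPKM in shNC, 0.76) and Idh1 (80.7 FPKM in shGpx4 and 55.0 FPKM in shNC, 0.54, interval 0.45 to 0.65) were higher. Mthfd2 (6.59 FPKM in shGpx4 and 11.1 FPKM in shNC, -0.67) and Aldh1l2 (3.75 FPKM in shGpx4 and 5.68 FPKM in shNC, -0.49) were lower. The pentose phosphate genes Taldo1 (-0.002) and Tkt (-0.04), downstream of G6pdx and Pgd, differed by less than their counting error.

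In the thioredoxin system 16 of 17 genes were measured and none passed 1.5-fold, with a median of -0.12, 2 intervals above 0 and 8 below 0. Those intervals are 12.5% and 50% of the measured genes of the list, against 18.1% and 27.3% of all measured genes. Txnip, whose product binds and inhibits thioredoxin, was lower at 114 FPKM in shGpx4 and 165 FPKM in shNC (-0.53, interval -0.58 to -0.49), while Txn1 and Txnrd1 were higher. Sesn3 (-0.50) and Nxn (-0.38) were lower too, and Prdx1 had a ratio of -0.02 with an interval of -0.06 to 0.03. This list shares Txnrd1 and Prdx1 with the other NRF2 targets.

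Genes listed here as repressed by BACH1 went both ways beside the lower Bach1. Of 9 entries 7 were measured, with 2 intervals above 0, 4 below 0 and a median of -0.11. Those intervals are 28.6% and 57.1% of the measured entries, against 18.1% and 27.3% of all measured genes. Of the 9 entries, 5 are also among the other NRF2 targets. The ferritin genes differed in direction. Fth1, the heavy chain, was at 14920 FPKM in shGpx4 and 11977 FPKM in shNC (0.32), and Ftl1, the light chain, at 1529 FPKM in shGpx4 and 2312 FPKM in shNC (-0.60). Alas1, the first enzyme of heme synthesis, was higher at 13.3 FPKM in shGpx4 and 9.11 FPKM in shNC (0.50), and Hebp1, a heme-binding protein gene, was lower (-0.56). Ferritin genes have processed copies in the genome among which reads can be shared, so their values are uncertain.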
